A study of Homo sapiens with 16 samples.

Results

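H3K27ac peaks of the cPt-resistant ovarian cancer line A2780cis were compared with those of its sensitive parent A2780, with attention to how far the acetylated regions that both lines share had widened, narrowed, fused or split. All autosomal peaks of both lists entered, 27932 in A2780 and 20245 in A2780cis of the 179695 peaks that the 8 lists of the series held over all chromosomes. Overlapping peaks of both lines, by 1 bp or more, were joined into 31493 regions, and the 13782 regions with a peak in both lines are called common here. A2780 is an epithelial ovarian cancer line that received no treatment, and A2780cis is its derivative kept in medium with 1 µM cPt (cisplatin). For each line 1 library was analyzed, made from mononucleosomes released by MNase, with *D. melanogaster* mononucleosomes added as spike-in and the antibody ab4729 against H3K27ac. Beside them stand the H3K9ac lists of both lines and the H3K27ac lists of CAOV4 and CAOV4cis. CAOV4 is a second sensitive line, and CAOV4cis its derivative, selected under rising cPt doses and kept in 1 µM cPt. H3K27ac lists of A2780 cells with shRNA shMBD3.26 or shMBD3.232 against *MBD3*, sorted after 1 week of knockdown, are included too. These were Tet-on cells, transduced by lentivirus, selected with G418 and induced with doxycycline. In their differences from A2780, these steps and the knockdown cannot be told apart. The input libraries and the control shRNA were not analysed here.

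Acetylation of lysine 27 of histone H3 marks active enhancers and promoters and is written by the acetyltransferases CBP and p300. Isolated enhancers carry short acetylated stretches, whereas clustered enhancers near genes of cell identity carry domains that run over many kilobases. A listed peak gives the extent of such a stretch above a threshold and not its height, so that a change in width can come from spreading of the mark or from a change in signal at its flanks, which the lists cannot tell apart.

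The lists covered 96.7 Mb of autosomes in A2780 and 91.5 Mb in A2780cis. No list had a peak on chromosomes 20 to 22, and on chromosomes 1 to 12 the last peaks of all lists ended before the chromosomes do. Values by chromosome thus refer to the listed part. The boundaries of autosomal peaks fell on multiples of 200 bp, and within a list neighboring peaks kept a distance of at least 1000 bp, so that any gap under 1000 bp counts as closed. The step that set this layout is not given in the sources used here. Read depth is unknown, the lines have no replicate, and no test was possible. Intervals of shares are 95% Wilson intervals and those of medians are order-statistic intervals. Both cover counting error over regions only, which are not replicates of a line.

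Most common regions kept their extent to within 1.5-fold, and among those that did not, widening in A2780cis was more frequent than narrowing. The median common region covered 3400 bp in A2780 and 3800 bp in A2780cis. The median log2 ratio of covered length, A2780cis over A2780, was 0.12 (0.11 to 0.13), or 1.09-fold, with quartiles at -0.30 and 0.58. At least 1.5-fold wider were 3537 regions, or 25.7% (24.9% to 26.4%) of all common regions. At least 1.5-fold narrower were 2189 regions, or 15.9% (15.3% to 16.5%). In the remaining 58.5% the lengths differed by less. Both shares are the background against which the counts by chromosome and width below are read.

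The direction of this excess changed under another width scale. A2780cis had fewer and on the whole wider peaks, with 8.21% over 10 kb against 5.38% in A2780. When each A2780cis peak was given the A2780 width at the same quantile, which shortens A2780cis peaks by construction, 1918 common regions were wider, 4513 narrower, and the median log2 ratio was -0.27. The part of this list-wide difference in the excess was not tested. Between other lists of unequal length, the direction varied. From A2780 to shMBD3.232, with 18936 autosomal peaks, the median log2 ratio of common regions was -0.11 (-0.13 to -0.10), with 1679 wider and 3308 narrower. From A2780 to shMBD3.26, with 23270 peaks, it was -0.19, with 1569 wider and 4309 narrower. From shMBD3.26 to shMBD3.232 it was 0.04, with 2613 wider and 1924 narrower, and from A2780 to A2780cis in H3K9ac, with 22438 and 15058 peaks, it was 0.16, with 2749 wider and 1646 narrower.

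**Figure D1:**
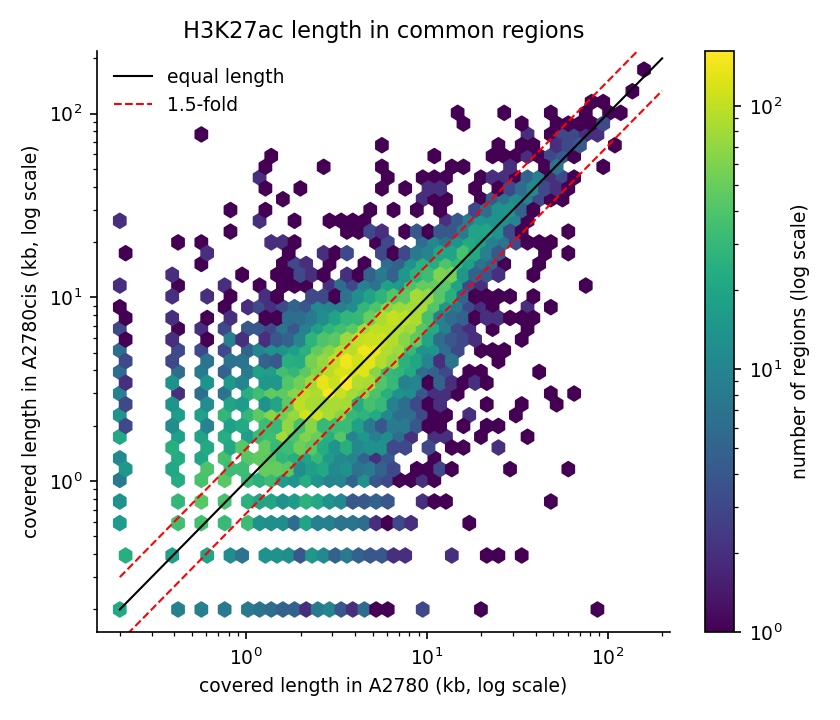
Covered length of each common region in A2780 (x axis, kb, log scale) and A2780cis (y axis, kb, log scale). Color gives the number of regions per hexagon, the black line equal length and the red dashed lines 1.5-fold. Most of the 13782 regions lie between the dashed lines, and single regions reach far into both corners.

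Widening was not a matter of the narrow regions alone, although these most often changed by at least 1.5-fold. In them, few steps of the 200 bp grid make up such a change, and their net gain was the smallest, at 0.52 Mb. Among the 3110 regions with a mean width of up to 2 kb, 37.1% (35.4% to 38.8%) were wider and 21.4% (19.98% to 22.9%) narrower. Among the 401 regions over 20 kb, 15.2% (12.03% to 19.1%) were wider and 7.23% (5.08% to 10.2%) narrower. The median log2 ratio lay between 0.07 and 0.22 in all 5 width classes. The 401 widest regions added 1.53 Mb in A2780cis, close to the 1.60 Mb added by the 5978 regions of 2 to 5 kb.

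The covered length of the common regions rose while that of the remainder fell. In common regions it went from 72.1 to 78.1 Mb, a net gain of 6.07 Mb. Outside them, A2780-only regions held 24.6 Mb and A2780cis-only regions 13.3 Mb. Behind the net gain stood a turnover that was larger than the gain. Only 57.9 Mb were covered in both lines at the base level. Within common regions, 20.2 Mb were covered in A2780cis alone and 14.2 Mb in A2780 alone. Of the former, 79.3% lay beyond the outermost A2780 boundaries and 20.7% in gaps between A2780 peaks. Of the latter, 87.9% lay beyond the outermost A2780cis boundaries. The median common region shared 0.65 of its covered bases between the lines (quartiles 0.47 and 0.79), and 281 regions had identical boundaries.

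Where both lists had a single peak, outward movement of both boundaries was more frequent than inward movement of both. Of these 11806 regions, 3160 (26.8%) extended outward on both sides in A2780cis and 1608 (13.6%) on 1 side with the other boundary unchanged. Retraction on both sides was seen in 2012 (17.0%) and on 1 side in 1174 (9.94%). In another 3571 (30.2%), one boundary moved out and the other in. A boundary moved by a median of 600 bp, or 3 steps of the grid (quartiles 200 and 1200 bp), and 10.6% of boundaries moved by more than 2 kb. The shift was often lopsided. Among the 3054 single-peak regions that were at least 1.5-fold wider, 1627 (53.3%) had at least 80% of the outward shift on 1 side, and among the 2023 narrower ones, 1186 (58.6%) had as much of the inward shift on 1 side.

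Some common regions came close to a switch between presence and absence. At least 8-fold wider or narrower were 2.15% of the common regions, 172 wider and 124 narrower. The wider ones grew from a median of 400 bp in A2780 to 4900 bp in A2780cis, and the narrower ones shrank from 4900 to 400 bp. At least 16-fold wider were 59 regions, and 37 were at least as much narrower. In the CAOV4 pair, 17 of 12037 common regions were at least 16-fold wider and 22 narrower. Changes of 1.5-fold or more had a similar frequency there, with 26.2% wider and 19.1% narrower. Changes of at least 1.5-fold in either direction were found in 41.5% of common regions in the A2780 pair and 45.3% in the CAOV4 pair, and changes of at least 16-fold in 0.70% and 0.32%. Whether the pairs differ beyond the spread of libraries could not be tested.

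The common regions with the largest gains were broad domains in A2780cis, as a ranking by gained length favors, and were covered over a smaller part in A2780. On chromosome 8 from 90834201 to 90929800, 5 A2780 peaks with 15.6 kb in all lay under 1 A2780cis peak of 95.6 kb. On chromosome 6 from 104696001 to 104789600, a peak of 15.6 kb reached 93.6 kb, with 76.0 kb added on the left and 2.0 kb on the right. On chromosome 7 from 15638601 to 15739400, 6 peaks with 25.2 kb became 1 peak of 100.8 kb. In A2780 these domains were thus limited to one end or to pieces.

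The steepest rise among them was on chromosome 7 from 25276601 to 25350600. A2780 had a peak of 600 bp there, and A2780cis had 1 of 74.0 kb. On chromosome 1 from 196273001 to 196338800, the length rose from 5.4 kb to 65.8 kb. In these 5 regions H3K9ac covered between 0 and 7.0 kb in A2780 and between 48.0 and 87.8 kb in A2780cis. The lists of shMBD3.26 and shMBD3.232 covered at most 15.6 kb in any of them. Since the 5 regions were picked for their gain over A2780, their distance from the A2780 list is given by the choice. CAOV4cis had at most 29.6 kb, on chromosome 8, where CAOV4 had 27 kb.

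The largest losses mirrored this pattern. On chromosome 9 from 14460001 to 14543000, an A2780 peak of 83.0 kb was left with 200 bp in A2780cis. On chromosome 4 from 4482001 to 4547600, 65.6 kb were left with 2.8 kb. On chromosome 14 from 53288401 to 53360000, 71.6 kb were left with 12.2 kb in 5 pieces.

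On chromosome 7 from 130030001 to 130087600, 57.6 kb were left with 1.2 kb, and on chromosome 1 from 10549401 to 10602600, 53.2 kb with 2.6 kb. H3K9ac covered between 46.2 and 73.0 kb of these 5 regions in A2780 and between 0 and 4.4 kb in A2780cis. The shRNA lists covered 50.6 to 67.0 kb with shMBD3.26 and 49.2 to 65 kb with shMBD3.232, in 1 to 7 pieces. Counted as common by their last listed pieces, these 5 domains were lost over most of their length in A2780cis.

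*JAK1*, which encodes a tyrosine kinase that passes signals from cytokine receptors to STAT transcription factors, lies in a window with such a widening. The A2780 peak on chromosome 1 from 65431001 to 65432200 measured 1.2 kb and lay wholly under an A2780cis peak of 25.6 kb, from 65410201 to 65435800. The latter reached 20.8 kb further on the left and 3.6 kb further on the right, and its 21.3-fold ratio ranked 41st of 13782 common regions. With shMBD3.26 a peak of 0.8 kb was listed, and with shMBD3.232 none. H3K9ac covered 16.2 kb of the region in A2780cis and had no listed peak in A2780. At *FGF10*, which encodes a secreted growth factor that acts through FGFR2, H3K27ac was not widened but listed in A2780cis only, in 8 peaks of 2.2 to 30.0 kb, and with shMBD3.26 in 1 peak of 200 bp. There H3K9ac was shorter, with 5 peaks and 12.8 kb in A2780cis and none in A2780.

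The following sequences show what was probed and what lies at *JAK1*. The primers are those the study designed for ChIP-qPCR at both genes, and their position among the peaks was not determined here, since no genome sequence of that build was used.
JAK1 ChIP-qPCR forward primer: gccgctgctctaaagaaagt
JAK1 ChIP-qPCR reverse primer: attctaaggaccacagcgat
FGF10 ChIP-qPCR forward primer: tccatttcgcacacatctacca
FGF10 ChIP-qPCR reverse primer: agtctcatctgctcccgtca
For *JAK1*, RefSeq gives 3 start windows, each with 250 bases before and 50 after a start. The one at chr1:64966500-64966799 (GRCh38.p14, minus strand) is printed 5′ to 3′ because it is the CpG-rich one, with 43 CG dinucleotides against 9 and 15 in the others and a median of 14 over all 35116 windows. Capitals mark 6 copies, partly overlapping, of the GC box GGGCGG or its complement CCGCCC. At least 1 copy is found in 44.95% of all windows and at least 6 in 2.86%. Its coordinates are of another build than those of the lists and cannot be compared with them.
JAK1 start window: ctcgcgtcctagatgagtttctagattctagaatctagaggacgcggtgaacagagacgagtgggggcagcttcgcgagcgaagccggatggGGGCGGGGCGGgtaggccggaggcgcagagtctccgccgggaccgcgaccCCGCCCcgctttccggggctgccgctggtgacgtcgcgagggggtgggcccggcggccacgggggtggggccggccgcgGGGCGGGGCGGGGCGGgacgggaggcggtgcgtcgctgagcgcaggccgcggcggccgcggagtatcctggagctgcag

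Fusions outnumbered splits. A fusion is an A2780cis peak that spans at least 2 A2780 peaks, and a split is an A2780 peak that spans at least 2 A2780cis peaks. There were 1564 fusions, which joined 3623 A2780 peaks, and 733 splits, which held 1576 A2780cis peaks, or 2.13 fusions per split. Single peaks in both lists made up 85.7% of common regions, several A2780 peaks under 1 A2780cis peak 9.24%, and the reverse 3.29%. With the A2780 list cut to its 20245 widest peaks, as many as A2780cis had, 1178 fusions and 733 splits were counted. This setting can take away fusions but adds none. The H3K9ac lists of the same lines gave 929 fusions and 418 splits, the CAOV4 pair gave 1411 and 1395, and the 2 shRNA lists, read from shMBD3.26 to shMBD3.232, gave 1195 and 625. From A2780 to shMBD3.232 there were 1226 fusions and 1071 splits, or 1.14 per split, and from A2780 to shMBD3.26 there were 881 and 1416, or 0.62 per split. The second list held fewer peaks in these shRNA comparisons and in the H3K9ac pair, and the ratio lay on both sides of 1. Peak widths differed as well. The median H3K27ac peak measured 2200 bp in A2780, CAOV4 and CAOV4cis and 2800 bp in A2780cis. It measured 2000 bp with shMBD3.26 and 2600 bp with shMBD3.232. In H3K9ac it went from 1600 bp in A2780 to 2600 bp in A2780cis. The ratio was lowest where the median width fell and higher where it rose, and the part of width in it was not tested.

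Most events closed short gaps. Fusions closed 2059 gaps with a median of 1400 bp (quartiles 1000 and 2200 bp), and 598 of these had the smallest length the lists allow. Splits opened 843 gaps with a median of 1200 bp. Of all A2780 gaps from 1000 to under 1500 bp, 33.2% were closed in A2780cis, and of the A2780cis gaps of that length, 29.1% were closed in A2780. Both shares fell for longer gaps, and the share of A2780 gaps stayed the higher one below 20000 bp. The values were 14.99% against 9.72% from 2 to under 3 kb and 2.31% against 1.11% from 5 to under 10 kb. From 10000 to under 20000 bp the shares came close, at 0.65% against 0.53%. For gaps of 20000 bp or more they were 0.037% against 0.038%. A2780cis peaks also joined more partners at a time. At least 6 peaks were joined by 21 fusions, and 1 split reached that number.

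**Figure D2:**
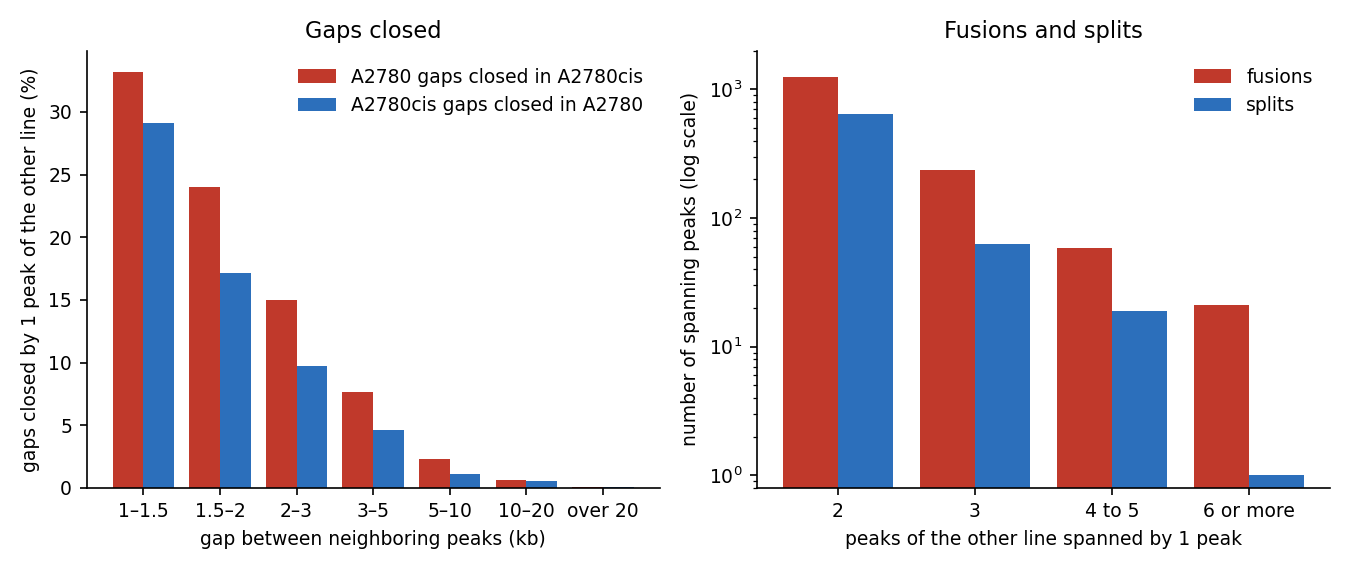
Left, share of gaps between neighboring peaks of a list (y axis, %) that a single peak of the other line closed, by gap length (x axis, kb). Right, number of fusions and splits (y axis, log scale) by the number of peaks spanned (x axis). In each gap class up to 20 kb the share is higher for A2780 gaps closed in A2780cis, and fusions outnumber splits in every class.

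The fusions with the most partners lay in domains that were already broad in A2780. On chromosome 9 from 97754401 to 97859400, 13 A2780 peaks of 0.4 to 17.2 kb with 74.4 kb in all lay under 1 A2780cis peak of 105 kb, and 22.8 kb of gaps were closed. H3K9ac went from 30.2 kb in 8 peaks to 95.6 kb in 4. On chromosome 5 from 58604601 to 58690000, 11 peaks with 58.0 kb in all became 1 of 85.4 kb. On chromosome 1 from 172285601 to 172403800, 10 peaks with 81.8 kb became 1 of 118.2 kb, and there H3K9ac also formed a single peak, of 118.0 kb, from 15 peaks in A2780. With the shRNAs, these 3 domains stayed in 6 to 9 peaks.

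The splits with the most pieces were fewer and of mixed kind. An A2780 peak of 60.8 kb on chromosome 16 from 73876401 to 73937200 was listed as 6 peaks with 41.0 kb in A2780cis, so that most of the domain was kept. The peak of 71.6 kb on chromosome 14 described above was left with 12.2 kb in 5 pieces. On chromosome 19 from 36759601 to 36798400, a peak of 38.8 kb was listed as 5 peaks, which covered 12.8 kb of it. Both shRNA lists were also broken up in these 3 domains, into 3 to 8 peaks, but covered 25.8 kb or more in each.

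The widest A2780cis peak, of 154 kb on chromosome 7 from 130555001 to 130709000, was a fusion as well. It lies in the window from *MIR29A* to *LINC-PINT* that the study shows, a choice made here after its values were seen. *MIR29A* encodes a microRNA that represses collagens and DNA methyltransferases, and *LINC-PINT* is a long noncoding RNA. The peak joined 9 A2780 peaks of 0.6 to 71.6 kb, which covered 147.4 kb in all, and the gaps it closed amounted to 11.4 kb. The 26.0 kb A2780 peak at its right end was in turn split, between this peak and one of 19.6 kb. Over the whole window H3K9ac went from 22 peaks with 116 kb to 11 peaks with 155 kb. The mature microRNAs of *MIR29A* and its RefSeq neighbor *MIR29B1* name the locus. They share their seed, bases 2 to 8, given in capitals (RefSeq, GRCh38.p14, 5′ to 3′).
hsa-miR-29a-3p: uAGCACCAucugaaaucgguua
hsa-miR-29b-3p: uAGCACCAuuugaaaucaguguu

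**Figure D3:**
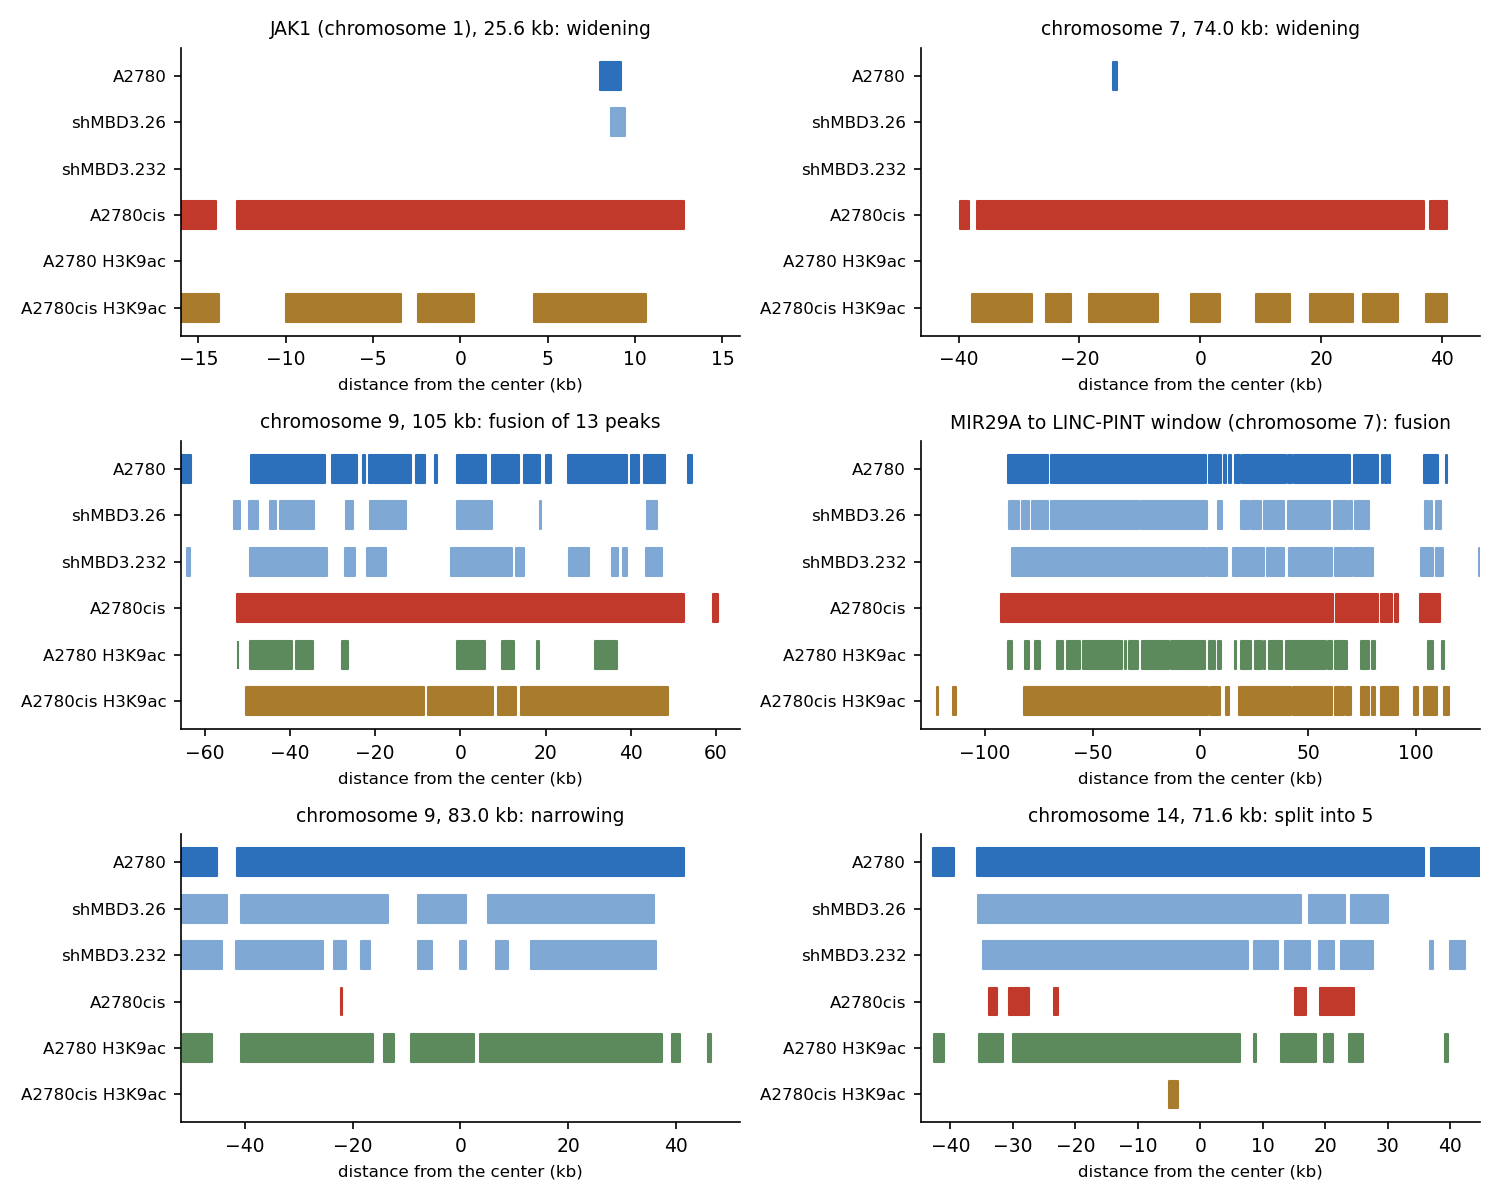
Listed peaks (bars) at 6 loci, with 1 row per list and the distance from the center of the region or window on the x axis (kb). H3K27ac is shown in A2780, shMBD3.26, shMBD3.232 and A2780cis, and H3K9ac in A2780 and A2780cis. At the narrowed domain on chromosome 9, A2780 has 83.0 kb in 1 peak, shMBD3.26 67.0 kb in 3 peaks and shMBD3.232 49.2 kb in 7, and at the split domain on chromosome 14 the shRNA rows hold 3 and 5 peaks. The H3K9ac rows change in the direction of H3K27ac.

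H3K9ac was measured with another antibody and took no part in the choice of regions. Its length followed that of H3K27ac. Of the 2625 wider regions with an H3K9ac peak in either line, 68.6% (66.8% to 70.4%) had a longer H3K9ac length in A2780cis and 28.0% (26.3% to 29.7%) a shorter one. Of the 1592 narrower regions with H3K9ac, 28.0% (25.8% to 30.2%) had a longer and 69.2% (66.8% to 71.4%) a shorter one. Regions within 1.5-fold stood between, with 54.3% and 40.5%. In sum, H3K9ac in the wider regions rose from 5.12 to 10.4 Mb, and in the narrower ones it went from 6.23 to 2.97 Mb. At the near-complete switches that had H3K9ac in either line, the marks rarely parted. H3K9ac was longer in 98 of 116 regions with H3K9ac that were at least 8-fold wider and shorter in 76 of 79 that were at least 8-fold narrower. The regions with H3K9ac made up 67.4% of the 172 wider and 63.7% of the 124 narrower switches. The others had no H3K9ac peak in either line. Longer regions offer more room for an H3K9ac peak, and the H3K9ac lists also share the difference in peak number and width, the parts of which in these shares were not tested.

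The A2780cis lengths were also set against the range of the 3 H3K27ac lists of A2780 cells, untransduced or with either shRNA. In 6758 common regions, or 49.0%, the A2780cis length lay above all 3, and in 1453, or 10.5%, below all 3. The A2780 length lay above the other 3 lists in 31.2% and below them in 8.66%. For shMBD3.26 these shares were 1.94% and 31.6%, and for shMBD3.232 2.96% and 29.1%. Common regions need a peak in A2780 and A2780cis but not with the shRNAs, which lowers the shRNA lengths. The wider and narrower classes were set against A2780, 1 of the 3 lists, so that only the shRNA lists could change the shares that follow. In common regions shMBD3.26 peaks covered 55.4 Mb and shMBD3.232 peaks 57.7 Mb, against 72.1 Mb in A2780. This favors a high share for wider regions and a low share for narrower ones. Of the 3537 wider regions, 71.4% (69.9% to 72.9%) were at least 1.5-fold longer in A2780cis than in the longest of the 3 lists. Of the 2189 narrower regions, 22.8% (21.1% to 24.6%) were at least 1.5-fold shorter than the shortest of them. For more than 3 in 4 of the narrower regions, at least 1 shRNA list had thus come near the A2780cis length or below it. The shRNA cells are not replicates of A2780, and these shares describe the lists.

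One chromosome went against the rest. On chromosome 13, A2780 had 657 peaks with 2.30 Mb and A2780cis 306 peaks with 1.23 Mb, a ratio of 0.54. The ratio on the other 18 autosomes with a peak lay between 0.81 (chromosome 4) and 1.06 (chromosome 3). The common regions of chromosome 13 were narrower as well, with a median log2 ratio of -0.30 (-0.43 to -0.19) over 239 regions. Of these, 27 were wider, or 11.3% (7.88% to 15.9%), and 84 narrower, or 35.1% (29.4% to 41.4%), against 25.7% and 15.9% of all common regions. On every other autosome the narrower share was 20.9% or less. H3K9ac moved the same way, from 523 to 102 peaks on chromosome 13, with a ratio of 0.30 in covered length. For shMBD3.26 over A2780 the ratio on chromosome 13 was 0.89, for shMBD3.232 0.82 and for CAOV4cis over CAOV4 1.00. DNA copy number was not measured here, and fewer copies of a chromosome and less acetylation cannot be told apart in these lists.

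Among the remaining chromosomes, the widths and the covered lengths did not rank alike. Chromosome 8 had the widest shift, with a median log2 ratio of 0.29 (0.20 to 0.39) and 34.1% of its 475 common regions wider, but its covered length in A2780cis was 0.99 times that in A2780. Chromosome 4 had fallen to 0.81 in covered length, yet its common regions were at a median log2 ratio of 0.12, and A2780-only regions held 1.39 Mb there against 0.70 Mb in A2780cis-only regions. On chromosome 19 the median log2 ratio was 0. In all, 17 chromosomes had a median above 0 and 1 below, whereas 12 of 19 covered less in A2780cis.

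**Figure D4:**
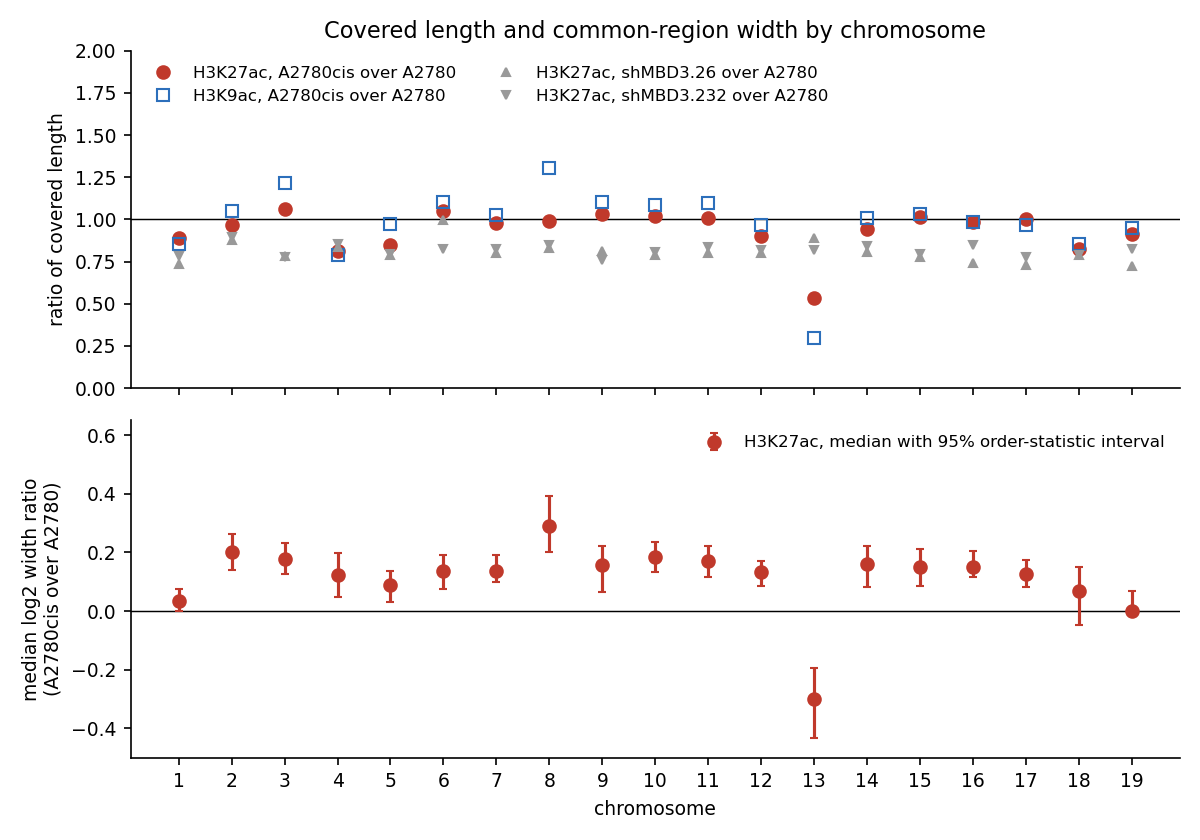
Top, ratio of covered length by chromosome (x axis) for both marks in A2780cis over A2780 and for H3K27ac with each shRNA over A2780. Bottom, median log2 width ratio of common H3K27ac regions, A2780cis over A2780, with 95% order-statistic intervals as bars. Chromosome 13 lies below all others in both panels, at 0.54 and -0.30.

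In blocks of 10 Mb, a scale chosen after the data had been seen, chromosome 13 was low along its length. All 9 of its blocks with at least 10 common regions had a median log2 ratio below 0. Over all autosomes 234 blocks had that many regions, 176 with a median above 0 and 37 below. Of 12 blocks at -0.25 or lower, 6 lay on chromosome 13 and 3 on chromosome 1. The latter belonged to a segment of chromosome 1 from 90 to 150 Mb. Its 232 common regions had a median log2 ratio of -0.39 (-0.51 to -0.24), with 27 wider and 97 narrower, and its peaks fell from 539 to 291. H3K9ac fell from 537 to 186 peaks there, and the limit on copy number holds for this segment too. Between 60 and 80 Mb of chromosome 1, by contrast, 47 common regions had a median of 0.36 (0.24 to 0.42) and the covered length rose from 0.37 to 0.63 Mb. On the rest of chromosome 1, the median was 0.08 (0.04 to 0.12). These segments were picked for their values, and they are a description.

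Neighboring common regions leaned to the same side. Over 3482 pairs of neighbors at most 10 kb apart, the log2 ratios had a Pearson correlation of 0.19, and over 3514 pairs more than 100 kb apart, of 0.16. The points share both libraries and the domain they lie in. Where both neighbors had changed by at least 1.5-fold, they changed in the same direction in 462 of 660 pairs at most 10 kb apart and in 420 of 643 pairs more than 100 kb apart. Since wider regions are more frequent, some of this would be found with no order along the chromosome. The correlations for the same distances in the CAOV4 pair were 0.08 and 0.06. From A2780 to shMBD3.26 they were 0.08 and 0.06, and to shMBD3.232 0.07 and 0.07. The same direction at most 10 kb apart was as frequent with shMBD3.26, at 72.6%, as in A2780cis, at 70.0%. It was found in 61.9% with shMBD3.232 and 57.3% in the CAOV4 pair. More than 100 kb apart, the share was 65.3% in A2780cis, 60.9% with shMBD3.26, 65.7% with shMBD3.232 and 54.6% in the CAOV4 pair.

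In windows of 1 Mb with a peak, the covered share mostly differed by few percentage points, and a small number of windows changed by a large part of their length. Of 2422 windows, 1944 had an H3K27ac peak in either line. The covered share differed by less than 1 percentage point in 63.3% of these. It was at least 5 points higher in A2780cis in 73 windows (3.76%) and at least 5 points lower in 117 (6.02%). The former lay on 18 chromosomes and the latter on all 19. Windows that changed by less than 5 points covered a median of only 2.03% in A2780. A difference under 1 point can thus be a large part of their peaks, and a share under 5% cannot fall by 5 points. The windows with a gain had a median share of 3.50% in A2780 and 17.7% in A2780cis, and those with a loss 14.2% in A2780 and 1.38% in A2780cis. In the CAOV4 pair 14 windows gained and 13 lost as much. Between both shRNA lists 23 and 14 differed as much. Against A2780, 9 windows were higher with shMBD3.26 and 13 with shMBD3.232, while 115 and 67 were lower. By count, a loss of this size was about as frequent with shMBD3.26 as in A2780cis, but a gain was not. The shRNA lists were also shorter in total. Of the autosomes, shMBD3.26 peaks took up 76.5 Mb and shMBD3.232 peaks 78.9 Mb. This was less than the 91.5 Mb of A2780cis and the 96.7 Mb of A2780. A shorter list favors losses over gains at a fixed limit of 5 points, and its part in these counts was not tested.

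The 5 strongest gains started from shares of 0.08% to 5.88% in A2780, where the windows that changed by less than 5 points had a median of 2.03%. On chromosome 17 from 28 to 29 Mb, the share rose from 5.88% to 36.7%. On chromosome 3 from 85 to 86 Mb it went from 0.08% to 28.4%, and on chromosome 14 from 68 to 69 Mb, around the DNA repair gene *RAD51B*, from 3.82% to 30.6%. The remaining 2 were on chromosome 1 from 70 to 71 Mb, from 4.06% to 29.9%, and on chromosome 10 from 69 to 70 Mb, from 2.82% to 25.6%. The chromosome 17 and 14 windows held 16 and 12 common regions, with median log2 ratios of 0.93 and 1.24. With either shRNA, the share stayed at 4.72% or less in these 5 windows. In CAOV4, the window with *RAD51B* was already covered at 35.0%, and in CAOV4cis at 29.8%. The gene was named after its values were seen.

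The strongest losses emptied windows almost entirely, with 1 exception. On chromosome 2 the share went from 35.5% to 0.32% between 50 and 51 Mb and from 23.2% to 0.06% between 164 and 165 Mb. Chromosome 4 went from 25% to 0.68% between 90 and 91 Mb, and chromosome 1 from 22.2% to 0.62% between 192 and 193 Mb. The exception was chromosome 4 between 124 and 125 Mb, the window with the highest share in A2780, which kept 23.8% of 46.9%. There the 21 common regions had a median log2 ratio of -0.49. With the shRNAs the share in these 5 windows was 17.6% or more.

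H3K9ac covered more in A2780cis in all 73 windows with a gain and less in 115 of 117 windows with a loss. In the other 1754 windows it was higher in 772 and lower in 798. The windows with a gain had a median H3K9ac difference of 7.42 percentage points, and those with a loss of -4.30 points. The H3K27ac difference of the shRNA lists from A2780 in the windows with a loss was -2.56 points with shMBD3.26 and -1.64 points with shMBD3.232. Since those differences share the A2780 list, a high value in it lowers all of them.

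**Figure D5:**
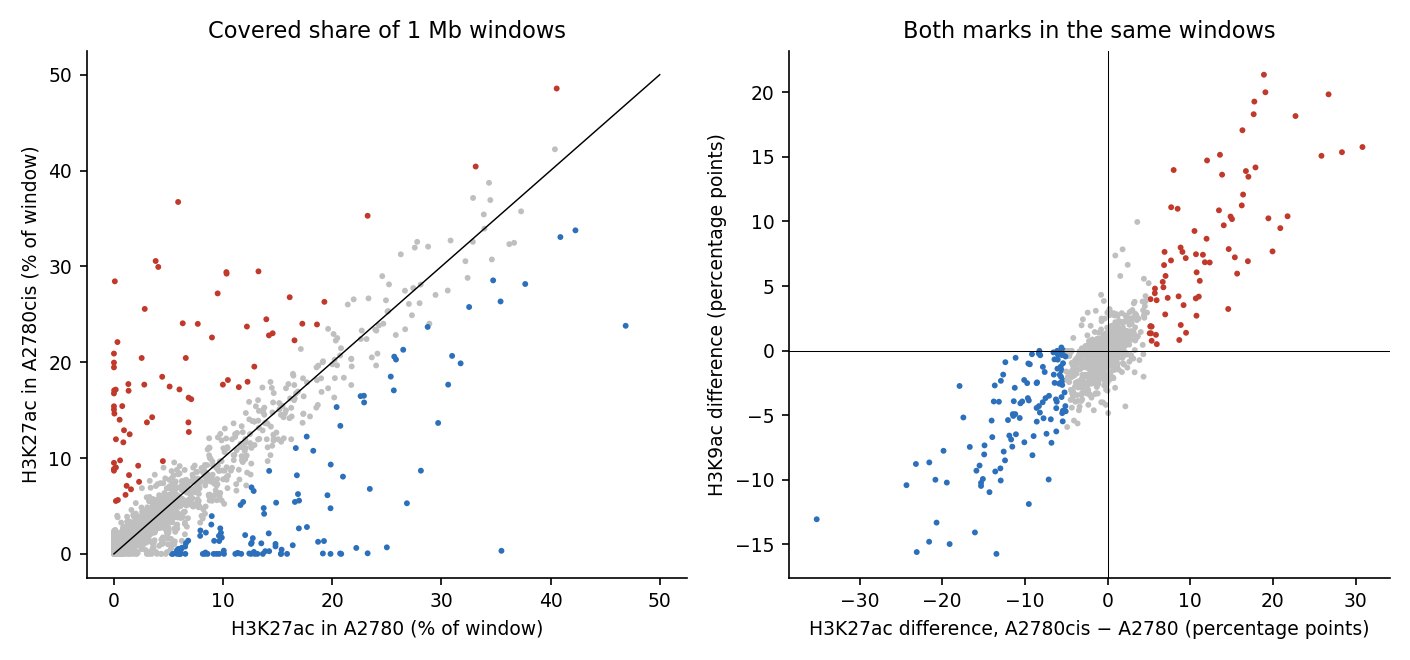
Left, share of each 1 Mb window covered by H3K27ac peaks in A2780 (x axis, %) and A2780cis (y axis, %). Right, difference A2780cis minus A2780 for H3K27ac (x axis) and H3K9ac (y axis) in percentage points. Red marks the 73 windows with at least 5 points more H3K27ac in A2780cis and blue the 117 with at least 5 points less. No red window lies below 0 for H3K9ac.

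Gains of whole domains and widening of common regions met in the same windows. Windows with at least 3 common regions were sorted by the balance of the regions found in 1 line only. In 42 windows with at least 20 kb more A2780cis-only than A2780-only length, the median log2 ratio of the common regions was above 0 in 41, with a median of 0.75. In 170 windows with the reverse balance, it was above 0 in 61 and below 0 in 91, with a median of -0.03. The 1060 windows in between had a median of 0.15. Losses outside common regions thus went with a smaller shift inside them than gains did, and the difference was not tested. The need for 3 common regions left out many windows with strong changes. Of the 117 windows that lost at least 5 points, 66 had that many and 30 had none. Of the 73 that gained as much, 48 had that many and 11 had none. All these counts come from the same pair of libraries.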

How the data were processed

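Reads were aligned by the authors with Bowtie2, to GRCh37 (hg19) per the labels, the ChIP-seq data were scaled by quantile normalization, and MACS2 peaks were called for each sample. The deposited lists give chromosome, start and end of each peak, and the deposited score, always 0, was left aside. Autosomal peaks of A2780 and A2780cis that shared at least 1 bp were chained into regions. The width in a line is the summed length of its peaks in the region, wider and narrower mean a ratio of at least 1.5, and a 1 Mb window counted if its covered shares differed by at least 5 percentage points. The regions named are the 5 with the largest gain and loss of length, the 3 fusions and splits with the most partners, the 5 windows with the largest difference in each direction, *JAK1* and *FGF10*. The genomic regions, lists and thresholds were chosen with earlier results of these data known. Lists of pathway genes were not applied, since no annotation of the build was used. The calculations used Python 3.11.15, numpy 2.4.6, pandas 2.3.3, SciPy 1.17.1 and matplotlib 3.10.9 and were tested on simulated lists.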

Additional observations from a re-analysis of the deposited data

Results flagged for a closer look

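The covered length of 2 chromosomes moved in opposite directions in both cell line pairs, by at least 1.1-fold each. On chromosome 5, the ratio was 0.850 for A2780cis over A2780 (1217 and 887 peaks in A2780 and A2780cis) and 1.19 for CAOV4cis over CAOV4 (1170 and 1388 peaks in CAOV4 and CAOV4cis). On chromosome 12, it was 0.904 for A2780cis over A2780 and 1.15 for CAOV4cis over CAOV4. The lists as a whole also moved in opposite directions, from 96.7 to 91.5 Mb in the A2780 pair and from 76.4 to 82.0 Mb in the CAOV4 pair. Of 19 autosomes, 12 covered less in A2780cis than in A2780 and 16 covered more in CAOV4cis than in CAOV4. With 1 library per line, these differences were not tested.

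Chromosome X took no part in the comparison of autosomes. It had 709 H3K27ac peaks in A2780 and 630 in A2780cis, and the covered length was 1.11 times as long in A2780cis. Of 440 common regions on it, 138 were at least 1.5-fold wider and 51 narrower, with a median log2 ratio of 0.22.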

How the results depend on the processing

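Of 47 values under other settings, 24 stayed within 1.5 times the count, within the interval of the median or within 1.1-fold of the ratio. Among these were the counts with the median log2 ratio set to 0, 2837 wider and 2591 narrower regions. There the excess of wider regions was much smaller than in the main setting, with 3537 and 2189. The direction of the median log2 width ratio was reversed by A2780cis widths on the A2780 quantiles (-0.27), which also moved the wider regions to 1918 and the narrower to 4513. The median moved without a turn with peaks over 2 kb (0.093), gaps of up to 2 kb closed (0.078), the outer span (0.082) and single-peak regions (0.10). Wider and narrower regions numbered 1930 and 1224 at 2-fold, and 1635 and 988 with peaks over 2 kb. Without chromosome 13 and 90 to 150 Mb of chromosome 1, a setting added after seeing the data, they numbered 3483 and 2008. Fusions and splits fell to 773 and 434 with peaks over 2 kb and to 824 and 458 with gaps closed, and splits to 486 with an overlap of 50% of the shorter peak. Windows with more coverage in A2780cis and in A2780 numbered 130 and 242 at 500 kb, 44 and 59 at 2 Mb, and 42 and 53 at 10 percentage points. The ratio of chromosome 13 was 0.88 inside common regions only. The cause of these shifts was not tested, beyond the smaller or larger number of peaks, regions and windows that the settings themselves leave. No paired analysis was possible because each list came from 1 library, and for the same reason no library could be left out.

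The widths are those of listed peaks whose read depth is unknown. On chromosomes 1 to 12 the last peaks of all 8 lists ended before the chromosomes do, at 197.2 Mb on chromosome 1, and a peak of the A2780 list on the mitochondrial chromosome ended at 16299, so that the covered parts of the genome, and with them the profiles, are incomplete. These ends lie close to the lengths of mouse chromosomes, and whether a mouse chromosome table had been used in making the lists was not tested.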
